A study of Homo sapiens with 4 samples.

Results

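The Z138 line was established from human mantle cell lymphoma, a cancer of B cells. Described here is its transcriptome in the presence of control hairpins, from the 2 shControl arrays of a series of 4. The 2 arrays were taken by their titles, Z138-shControl.1 and Z138-shControl.2, and the 2 arrays of cells with hairpins against SOX11 were not used. Both control samples are Z138 cells carrying a stably integrated lentiviral scrambled short hairpin RNA, a different construct on each array, so SOX11 was not targeted in either. Per the labels, total RNA was labelled with biotin from the 3′ end and measured on U133 Plus 2.0 arrays from Affymetrix, with 1 array for each construct. Cells with different integrated constructs are separate populations, so construct, culture and technical differences cannot be told apart in the spread between the arrays. The labels do not say whether the cells were single clones. A difference between the arrays cannot be tested for any gene. Across the 54675 probe sets, 41091 carried 1 gene symbol, and these covered 19775 genes.

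Mantle cell lymphoma is defined by a translocation that places CCND1, the gene of cyclin D1, under the control of the immunoglobulin heavy chain locus, so that a cyclin that normal B cells scarcely make is expressed at all times. Most cases also express SOX11, a transcription factor of the developing nervous system that is silent in normal B cells. The B-cell identity of the tumour is maintained by PAX5, EBF1 and their partners, which switch on the genes of the B-cell receptor and hold back those of other blood lineages.

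Signals are given as the authors' MAS5 intensity, in the order shControl.1 and shControl.2. A gene was represented by its brightest probe set with a single symbol, and genes were ranked by the mean log2 signal of the 2 arrays. Probe sets differ in how well they bind their target, so a rank is a place among signals and not an amount of RNA. The median of all probe set signals on these arrays, 25.5, served as the threshold. It was exceeded on both arrays by 10718 genes (54.2% of all genes), on 1 array by 2031 genes (10.3%) and on neither by 7026 genes (35.5%). Of the 54 values of the 27 bacterial control probe sets for lys, phe, thr, dap and trpn, 1 lay above this threshold. The spiked-in hybridisation controls ranged from 253 to 474 for BioB and from 10233 to 16788 for Cre, and the 2% trimmed mean was 150 on both arrays. The 3′/5′ signal ratio of beta-actin was 11.6 on both arrays, that of GAPDH 0.978 and 1.06. Beta-actin thus read far lower at its 5′ than at its 3′ probe set, while GAPDH was level. Where a probe set lies along its transcript was not taken into account in the ranks or the threshold. Control probe sets for 18S ribosomal RNA were 1.62-fold to 1.79-fold brighter on shControl.2 at all 3 probe sets, and those for 28S had ratios of 0.887, 1.18 and 1.41, higher on shControl.2 at 2 of 3.

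The share of genes above the threshold differed by type of gene and by number of probe sets. It was 60.5% of 16521 protein-coding genes and 19.8% of 2658 long non-coding RNA genes. It was also 38.4% of genes with 1 probe set and 81.6% of those with 6 or more, where the brightest of several was taken. The reasons for these differences were not tested. In genes above the threshold with at least 2 probe sets, the brightest and the dimmest differed by a median of 9.99-fold, and in 51.2% of these 7162 genes the dimmest lay below the threshold. The median gene had a signal of 38.8, the gene at the 90th percentile 986 and the gene at the 99th percentile 6939.

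The defining markers of the line were all present on both arrays. CCND1 had signals of 9760 and 10317, which placed it at the 99.5th percentile of genes, with a log2 mean of 13.29 ± 0.06 (SD, n = 2). SOX11 had signals of 797 and 787 at its brightest probe set, the 87.4th percentile (log2 mean 9.63 ± 0.01), and 439 and 482 and 296 and 327 at its other probe sets. PAX5, the guardian of B-cell identity, stood at 1845 and 1666 (94.7th percentile), although its second probe set was below the threshold at 12.6 and 15.2. EBF1, a pioneer factor of early B cells, had 2282 and 2459 (96.1st percentile) and lay above the threshold at each of its 4 probe sets. POU2AF1, the B-cell coactivator of octamer-binding factors, had 3565 and 3574 (97.7th percentile). CD79B, which transmits the receptor's signal into the cell, had 916 and 992 (89.6th percentile). With the probe sets of a gene averaged, CD79B fell to the 75.6th percentile, PAX5 to the 78.6th and POU2AF1 to the 79.8th. By that measure EBF1 was at the 94.1st, CCND1 at the 98.6th and SOX11, which rose, at the 90.9th. None of the 6 markers differed by more than 0.15 on the log2 scale between the hairpins. The markers lie well to the right of the threshold in the histogram of gene signals.

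**Figure D1:**
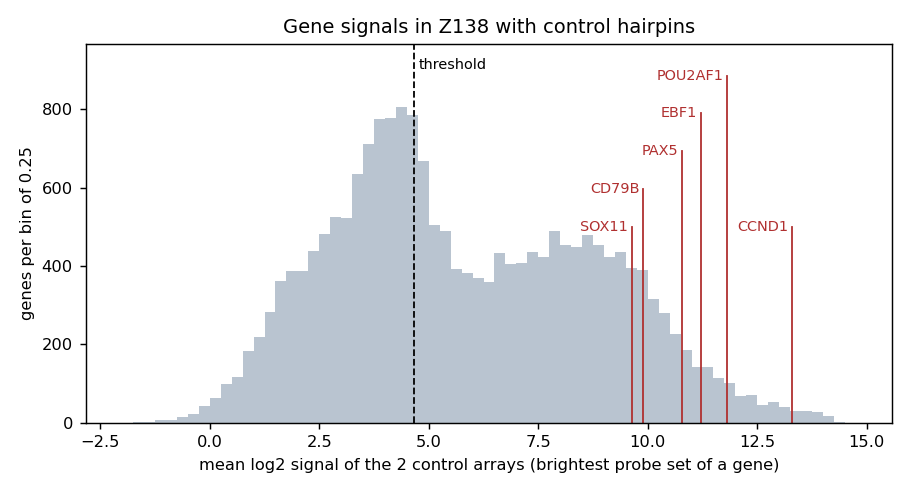
Histogram of the mean log2 signal of 19775 genes on the 2 control arrays, each gene by its brightest probe set, with the signal threshold as a dashed line and the 6 marker genes as red lines (line heights only separate the names). A large group of genes lies around and below the threshold and a broader one above it, and SOX11 (9.63) to CCND1 (13.29) lie in the upper part.

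The brightest genes were those of protein synthesis. Among the 15 brightest, 10 encode ribosomal proteins, led by RPS23 (21338 and 19544), RPL7 (19567 and 19545) and RPL37A (20435 and 17649). The others were the elongation factor EEF1A1 (16575 and 17925), the growth-related TPT1 (18348 and 17244), the nascent chain binder NACA (17373 and 16863), the mitochondrial genome's COX2 (19837 and 19659), a subunit of cytochrome oxidase, and HUWE1. The place of HUWE1, a ubiquitin ligase, rests on 1 probe set of the kind marked for possible cross-hybridization, at 17878 and 17440, while its next probe set was at 726 and 725. Of the 100 brightest genes, 47 carried a ribosomal protein symbol, out of 61 such genes measured, and 60 of those 61 lay above the threshold, all but the paralogue RPL3L. A further 5 of the 100 came from the mitochondrial genome. When probe sets of a gene were averaged, 25 of the 100 brightest genes were ribosomal.

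Transcripts of many translation genes begin with a C followed by a run of pyrimidines, the 5′ terminal oligopyrimidine tract through which growth signals control their translation. Start sites are shown for some of the 15 brightest genes to let this feature be read directly. Each window runs from 10 bases before to 15 bases from the annotated start, on the transcribed strand (RefSeq, GRCh38.p14). Capitals mark the pyrimidine run from the first transcribed base.
RPS23, chr5:82278340-82278364, minus strand: cggtgcttctCTCTTTCgctcaggc
RPS10, chr6:34426055-34426079, minus strand: catgctccttCCTTTCCagccccgg
RPS19, chr19:41860245-41860269, plus strand: ccccgtcgttCCCTTTCCCCTggct
RPS6, chr9:19380222-19380246, minus strand: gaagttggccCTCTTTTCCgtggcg
RPLP1, chr15:69452808-69452832, plus strand: ggcgcgagagCCCCTTTCCTCagct
EEF1A1, chr6:73521018-73521042, minus strand: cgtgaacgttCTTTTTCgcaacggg
TPT1, chr13:45341169-45341193, minus strand: ctgagtcggcCTTTTCCgcccgctc
RPL9, chr4:39458908-39458932, minus strand: taatgacgacagacgttctttcttt
The runs span 7 to 11 bases in the first 7 of these. RPL9 has none at its annotated start, where a pyrimidine stretch follows some bases further on. In windows of the 15 brightest genes that are not shown, the run is 6 bases in RPL37A and NACA, 7 in RPS27 and 8 in RPS16. HUWE1 has none.

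A start of this kind, a C at the first base and at least 4 bases that are each C or T after it on the transcribed strand, was found in 38 of the 82 promoters available for the 100 brightest genes (46.3%). It was found in 28 of 41 ribosomal protein genes among them (68.3%) and in 10 of the other 41 (24.4%). Over all 15384 measured genes with a promoter in the table it was found in 4.50%, and over all 27305 promoters in 4.04%. These are shares of annotated starts and say nothing of translation in these cells.

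The share of all genes above the threshold on both arrays, 54.2%, is the one to set each list count below against. It rose with the number of probe sets of a gene, from 38.4% with 1 to 59.9% with 2 and 72.8% with 3. Transcription factors of the B lineage lay above the threshold in 19 of 20 measured cases, with a median percentile of 86.3. After POU2AF1 came TCF3 (2917 and 2649), the E protein that starts the B-cell programme, then EBF1 and TCF4 (1855 and 2022), a second E protein. ETS1 (1523 and 1906) and IKZF1 (1511 and 1773), regulators of lymphoid development, followed PAX5. SPIB, an ETS factor of B cells, had 606 and 647, and POU2F2, the octamer-binding partner of POU2AF1, had 109 and 104. LEF1, a nuclear effector of WNT signalling that is rarely made by mature B cells, had 1138 and 1026. SPI1, which drives myeloid as well as B-cell genes, was the 1 member below the threshold on both arrays (17.3 and 4.34).

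Surface antigens of B cells were more mixed, with 21 of 29 above the threshold on both arrays (72.4%, against 54.2% of all genes) and a median percentile of 60.8. MS4A1, which encodes CD20, had 8358 and 7778 (99.2nd percentile), and the invariant chain CD74 had 5859 and 6504. TNFRSF17, the BCMA receptor of antibody-secreting cells, followed with 3071 and 2786, and FCRLA with 1958 and 1784. CD38 (864 and 854) and the TNF family ligand CD70 (692 and 796) lay at the 88.4th and 86.7th percentile. CD79A, the partner of CD79B, had 272 and 341. CD24 had 258 and 239, on a probe set that may cross-hybridize. ROR1, a receptor found on many B-cell tumours, had 95.8 and 100, and CD22 48.2 and 67.0. CD5, which classical mantle cell lymphoma carries on its surface, was below the threshold at 6.25 and 7.87. FCER2 (CD23, 11.6 and 20.4), MME (CD10, 11.7 and 2.39) and CR2 (CD21, 1.73 and 20.1) were also below it on both arrays. CD37 was above it on shControl.1 alone (30.4 and 6.91).

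Immunoglobulin genes, looked at after their values were seen, gave strong signals for a mu heavy chain and a lambda light chain. IGHM had 9628 and 10433, with a second probe set at 6954 and 7492. IGLC1, of the lambda constant region, had 15566 and 15635, with a second probe set at 12231 and 11739. IGKC, the kappa constant region, had 525 and 446 at its brightest probe set and at most 54.2 at its 7 other probe sets. IGHD stood at 340 and 370, while IGHG1 (31.0 and 22.3) and IGHA1 (8.48 and 21.7) were not above the threshold on both arrays. JCHAIN, the joining chain of secreted IgM and IgA, had 11234 and 12964. Immunoglobulin probe sets can read one another's transcripts, and many more of them match several genes and were not used here.

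Genes of B-cell receptor signalling were above the threshold in 22 of 22 measured cases, with a median percentile of 78.2. The brightest were the tetraspanin CD81 (3843 and 4111), the kinase subunit PIK3CD (1815 and 1901), the adaptor GRB2 (1453 and 1389) and the linker BLNK (1353 and 1142). The proximal kinases had moderate signals, SYK 649 and 631, LYN 457 and 499, and BTK 241 and 208. MALT1 (779 and 802) and BCL10 (1074 and 1230), which carry the signal to NF-kappaB, were present as well. LCK, a SRC family kinase best known from T cells, had 226 and 228.

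Genes that mark stages of B-cell life divided as follows. Of 17 plasma cell genes, 15 were above the threshold, with a median percentile of 91.9, among them SEC11C (6958 and 5982) and SSR4 (5246 and 5201) of the secretory pathway, IRF4 (1423 and 1496), XBP1 (769 and 738) and PRDM1 (555 and 501), the repressor that ends the B-cell programme. SLAMF7 (10.8 and 18.4) and CD27 (6.41 and 21.5) were the members below it. Of 15 germinal centre genes, 12 were above the threshold, led by EZH2 (2280 and 2285), which dividing cells also express. BCL6, the germinal centre master regulator, had 48.8 and 39.6. RGS13 (21.3 and 9.23) and MME were below it. Of 13 early B-cell and recombination genes, 7 were above the threshold (53.8%), near the 54.2% of all genes, so the count says nothing particular of this list. IGLL1, a surrogate light chain gene whose sequence resembles the lambda constant region, had 6637 and 7999 on its only probe set, and VPREB3 had 602 and 471. RAG1 (12 and 17.5), RAG2 (9.50 and 7.50), which cut DNA for V(D)J recombination, VPREB1 (16.8 and 11.6) and IL7R (12 and 11.4) were below it, and DNTT, the terminal transferase, was just above it at 31.1 and 34.7.

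Among genes of mantle cell lymphoma, 17 of 18 measured were above the threshold, with a median percentile of 90.4. After CCND1 came the splicing factor gene HNRNPH1 (8084 and 10761), MYC (5501 and 5740), CDK4, the kinase partner of cyclin D1 (4059 and 3892), and the ubiquitin ligase MDM2 (2673 and 2758). The retinoblastoma gene RB1 had 2404 and 2805, the chromatin remodeller SMARCA4 2341 and 2635, and BCL2 1414 and 1404. ATM, the DNA damage kinase often lost in this lymphoma, had 183 and 203. CDKN2A, the inhibitor of CDK4 and CDK6 that aggressive cases often delete, was at 36.2 and 25.5, above the threshold on 1 array only and by little.

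Cell cycle genes were above the threshold in 25 of 29 cases, with a median percentile of 87.8. Of the other D-type cyclins, CCND2 had 22.6 and 26.7 and CCND3 224 and 238. CDK6, the relative of CDK4, had 139 and 141. Several genes of replication and mitosis were bright, PCNA at 7370 and 7917, CDK1 at 3651 and 3501 and TOP2A at 2567 and 2910, and MKI67 had 970 and 962. Others were dimmer, with E2F1 at 152 and 213, CCNE1 at 174 and 177 and PLK1 at 93.5 and 59.3. Of the inhibitors, CDKN1B had 3360 and 3400 and CDKN1A 1331 and 1410, whereas CDKN2B (0.990 and 8.10) and CDKN2D (4.51 and 17.5) were below the threshold on both arrays. In the BCL2 family, 15 of 17 measured members were above the threshold. PMAIP1 (NOXA), which binds MCL1, had 6135 and 5096, MCL1 1492 and 1938 and BCL2L11 (BIM) 136 and 141. BCL2A1 (17.3 and 11.2) was below the threshold.

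The SOX family was mostly silent by this measure, with 6 of 19 genes above the threshold on both arrays and a median percentile of 28.8. SOX4, a close relative of SOX11, had 3590 and 3635 (97.7th percentile), and SOX12, from the same group, had 151 and 128. SOX6 (108 and 150), SOX15 (42.4 and 40.3) and SOX7 (35.1 and 36.7) were the others above it. SOX2, the stem cell factor, was at 24.9 and 29.2. SOX9 (10.4 and 10.3) and SOX10 (7.76 and 6.97), of cartilage and neural crest, were below it. The count for this list was 3 of 19 when probe sets of a gene were averaged. Of 13 neural and progenitor genes, 6 were above the threshold (46.2%), near the 54.2% of all genes, so the count says nothing particular of this list. Among them were the tubulin regulator STMN1 (3084 and 2860) and the beta-tubulin TUBB3 (2299 and 2271), while the neuronal DCX (7.75 and 2.53) and MSI1 (4.74 and 3.18) were below the threshold.

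**Figure D2:**
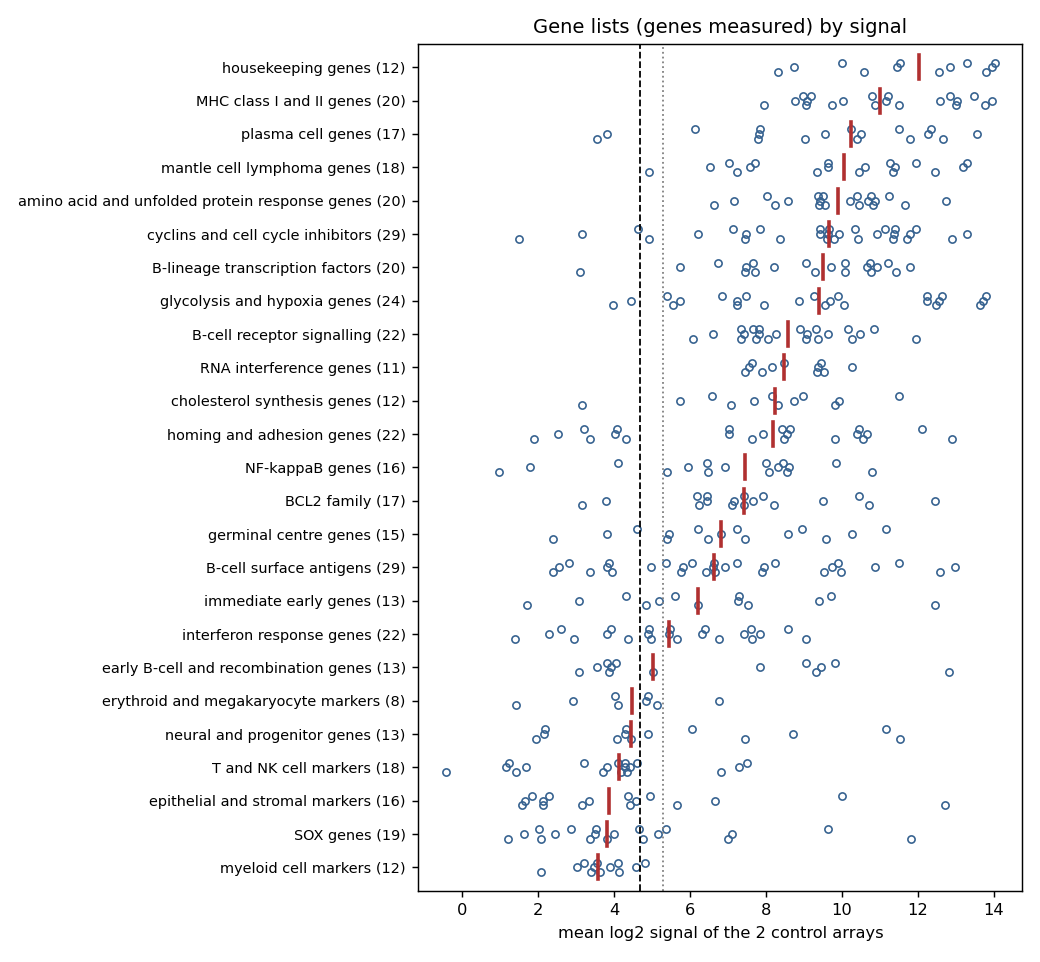
Mean log2 signal on the 2 control arrays for the measured genes of 25 lists, 1 circle per gene (small vertical offsets only separate circles), with the list's median as a red bar, the signal threshold as a dashed line and the median of all genes as a dotted line. Lists are ordered by their median, from myeloid cell markers at the bottom, below the threshold, to MHC genes (median percentile 95.5) and housekeeping genes (97.9) at the top.

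Genes of homing and adhesion were above the threshold in 15 of 22 cases (68.2%, against 54.2% of all genes). CXCR4, the receptor that holds B cells in the marrow and lymph node, had 7228 and 8199, followed by the integrin ITGAE (4555 and 4264), the receptor GPR18 (1749 and 1504), ICAM2 (1545 and 1459) and the tetraspanin CD9 (1374 and 1452). ITGB1 (1322 and 1380) and ITGA4 (887 and 934), which pair as VLA-4, were present. CCR7 had 397 and 404. CXCR5 (22.2 and 4.77), the receptor for entry into follicles, ITGB2 (10.8 and 3.02), ITGAL (24 and 16.2) and CD44 (17.2 and 15.7) were below the threshold on both arrays.

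Antigen presentation genes were among the brightest lists. All 20 measured MHC class I and II genes were above the threshold, with a median percentile of 95.5, and 13 of them were above the 90th percentile of genes. B2M, the light chain of class I, had 15346 and 16339, and HLA-DRA and HLA-DPA1, class II alpha chains, had 13916 and 14093 and 11228 and 11734. HLA-DPB1 had 7330 and 7488, HLA-DMA 1836 and 1738, HLA-DOA 486 and 527 and HLA-DOB, a brake on peptide loading, 228 and 273. RFX5 (2372 and 2423), which binds class II promoters, and CIITA (490 and 388), the coactivator that switches them on, were both present.

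Class II promoters share a Y box, an inverted CCAAT element, downstream of the X box that RFX5 binds. Promoter stretches are shown for 4 class II genes, chosen from those in which ATTGG was found. Every measured gene of the list lay above the threshold. Each line gives 60 bases upstream of the start on the transcribed strand, with every ATTGG or CCAAT in capitals (RefSeq, GRCh38.p14).
HLA-DPB1, chr6:33075851-33075910, plus strand: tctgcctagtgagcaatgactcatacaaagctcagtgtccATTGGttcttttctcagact
HLA-DQB1, chr6:32666726-32666785, minus strand: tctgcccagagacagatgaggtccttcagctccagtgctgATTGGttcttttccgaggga
HLA-DMA, chr6:32953157-32953216, minus strand: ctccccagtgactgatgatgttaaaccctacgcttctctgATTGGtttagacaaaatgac
HLA-DOA, chr6:33009639-33009698, minus strand: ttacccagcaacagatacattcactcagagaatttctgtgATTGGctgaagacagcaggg
The ATTGG shown begins 99, 88, 79 and 67 bases before the annotated start, in that order. HLA-DPB1, HLA-DQB1 and HLA-DMA had 2 matches each to ATTGG or CCAAT, of which 1 is shown. ATTGG or its reverse complement CCAAT was found within the 250 bases before the start in 7 of 8 promoters of class II genes and CD74, against 33.0% of all 27305 promoters. This count takes either orientation. In HLA-DMB and CD74 the only match was CCAAT on the transcribed strand, which is not the inverted form of the Y box. A match to so short a motif is a description of the letters only. The octamer that POU2AF1 acts through (ATTTGCAT, or ATGCAAAT on the other strand) was in 1.80% of all promoters. It was in 1 of 38 promoters of B-lineage factors and surface antigens, that of MEF2B, a gene not measured here. In the other B-cell lists it was in 1 of 13 early B-cell promoters (VPREB3), 1 of 20 receptor signalling promoters (PRKCB) and 1 of 12 plasma cell promoters (PIM2). Single matches say little against the share of all promoters.

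Stress, metabolic and signalling lists showed the following. All 20 amino acid and unfolded protein response genes were above the threshold (median percentile 89.3), with the transcription factor ATF4 at 6787 and 6853, its target asparagine synthetase ASNS at 2383 and 2429 and the chaperone HSPA5 at 1849 and 1786. Of 24 glycolysis and hypoxia genes, 22 were above it, with GAPDH at 15413 and 13058, both lactate dehydrogenase chains LDHB (13560 and 13433) and LDHA (12504 and 13108) and the glucose transporter SLC2A1 at 175 and 131. Of 12 measured cholesterol synthesis genes, 11 were above it, with FDPS, of the isoprenoid branch point, at 2916 and 2928. NF-kappaB genes were above it in 13 of 16 cases, with the inhibitor NFKBIA at 1625 and 1940 and the brake TNFAIP3 at 946 and 884, while LTA (1.74 and 2.23) and TNF (3.44 and 3.50) were below it. Immediate early genes were above it in 9 of 13 cases (69.2%, against 54.2% of all genes). After MYC came JUND (849 and 841) and IER2 (711 and 647), with EGR1 at 236 and 146, and FOS (17.1 and 4.11) and FOSB (2.09 and 5.11) were below it.

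Since the cells carry hairpin RNAs, the genes that process or sense them were placed too. All 11 measured RNA interference genes were above the threshold, with a median percentile of 77.3. DROSHA had 1309 and 1157, DICER1 714 and 691, the exporter XPO5 582 and 721 and AGO2, the slicer, 176 and 201. Interferon response genes were above the threshold in 13 of 22 cases (59.1%), near the 54.2% of all genes, and none was above the 90th percentile of genes. The kinase EIF2AK2, a sensor of double-stranded RNA, had 509 and 555 and ISG15 398 and 375, while IFIT1 (3.33 and 2.05), IFI44 (2.99 and 7.87) and IFI27 (14 and 2.66) were below it. Cells without a hairpin were not measured, so these levels have no reference in the series.

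Markers of other cell types were above the threshold on both arrays in 12 of 54 cases (22.2%, against 54.2% of all genes), on 1 array in 12 and on neither in 30. The counts of the single lists are small and moved with the setting. With shControl.2 alone or shControl.1 alone, T and NK cell markers went from 3 to 5 or 6, myeloid markers from 1 to 2 or 3 and erythroid and megakaryocyte markers were 3 and 5. With a threshold at the 35th percentile of signals they were 8, 3 and 5, and with averaged probe sets the myeloid and the erythroid and megakaryocyte counts were 0. T and NK cell markers (3 of 18) were CD3G (160 and 207), PRF1 (163 and 149) and CD247 (114 and 112), while CD3D (29.3 and 14.1), CD3E (14.3 and 27.2), CD8A (1.78 and 2.77) and TRAT1 were not above it on both. Of 12 myeloid markers, 1 was above it, ITGAM at 26.9 and 30.0, and CD14 (3.11 and 5.66) and LYZ (12.7 and 8.84) were below. Of 8 erythroid and megakaryocyte markers, 3 were above it, EPOR (110 and 107), HBB (43.1 and 29.1) and ITGA2B (32.5 and 25.8). Among 16 epithelial and stromal markers 5 were, VIM (7046 and 6535), an intermediate filament gene that lymphoid cells also express, COL1A1, ACTA2, KRT8 and KRT18. COL1A1 had 1063 and 1012 at 1 probe set and at most 141 at its other 4, and EPCAM (12 and 6.55) and CDH5 (2.61 and 3.39) were below the threshold. The summed signal of the list on shControl.1 and shControl.2 was 664 and 643 for T and NK cells, 186 and 185 for myeloid cells, 279 and 226 for erythroid cells and megakaryocytes and 8413 and 7851 for epithelial and stromal cells, the last mostly from VIM.

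The second question was how closely the control hairpins agree. Across the 10718 genes above the threshold the log2 signals of the arrays correlated with Pearson's r = 0.989 and Spearman's rho = 0.988, a description across genes, which are not independent and share the same probes on both arrays. The median gene differed by 1.11-fold, and 70.9% of genes differed by less than 1.2-fold. At least 1.5-fold apart were 730 genes (6.81%), of which 341 were higher (3.18%) and 389 lower (3.63%) on shControl.2. At least 2-fold apart were 89 genes (0.830%). With 1 array per construct these are counts by size, without a test.

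**Figure D3:**
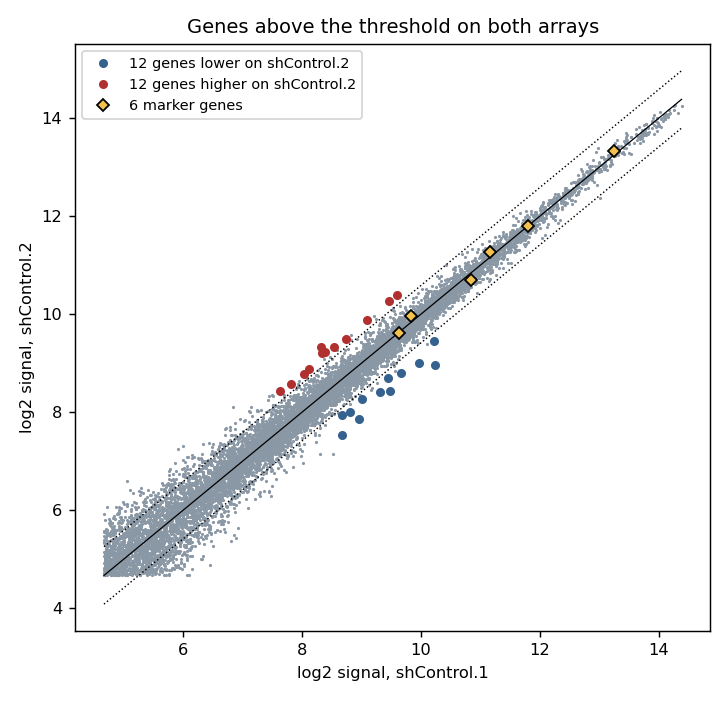
Log2 signal on shControl.2 against shControl.1 for 10718 genes above the threshold on both arrays, with the line of equality, dotted lines at 1.5-fold, the 6 marker genes as diamonds and the 24 named genes in colour. The cloud narrows with signal, and the markers lie on the line of equality within 0.15.

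The agreement depended on signal. These genes were divided by signal into 10 groups of about 1072. In the dimmest group, with a median signal of 34.7, 17.3% were at least 1.5-fold apart, and in the next group (53.1) 22.9% were. Genes had to exceed the threshold on both arrays, so those with a mean near it could not be far apart. This holds down the share in the dimmest group. The share was 1.77% in the group with a median of 317 and 0.0933%, or 1 gene of 1072, in the brightest (3186). The median difference went from 1.25-fold in the second group to 1.06-fold in the brightest. All genes together, including those below the threshold, were at least 1.5-fold apart in 33.5% of cases.

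**Figure D4:**
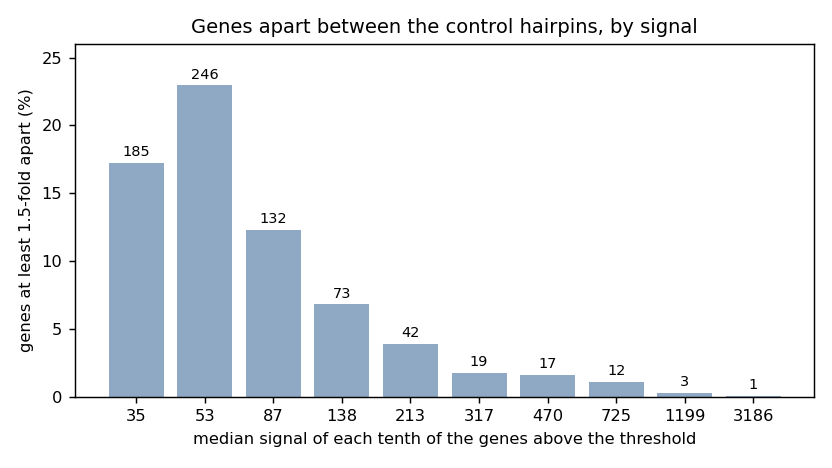
Share of genes at least 1.5-fold apart between the control hairpins (vertical axis, percent) in each of 10 groups of the genes above the threshold, ordered by signal, with the group's median signal on the horizontal axis and the number of genes above each bar. The share is highest in the second group (22.9%, 246 genes) and lowest in the brightest (0.0933%, 1 gene). Genes had to exceed the threshold on both arrays, which holds down the share in the dimmest group.

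Most of the lists described above held few members on which the hairpins were apart. The share over all genes above the threshold was 6.81%, as given, but it falls with signal and was 0.970% among the brighter 5359 of them. Many members of the lists named next are bright, so a count of 0 says nothing particular of a list. B-lineage factors (0 of 19), B-cell receptor genes (0 of 22), MHC genes (0 of 20), plasma cell genes (0 of 15), mantle cell lymphoma genes (0 of 17) and the stress response list (0 of 20) had no member at least 1.5-fold apart. Among 21 surface antigens 3 were, SPN (64.4 and 158), CD80 (65.4 and 111) and TNFRSF13B (194 and 117), and SPN differed by 1.30 on the log2 scale at a cross-hybridizing probe set while 3 others lay between 66.7 and 92.4 on both arrays. Among 13 interferon response genes 3 were, OASL (79.5 and 32.1) and OAS2 (55.3 and 34.4) lower and IRF9 (68.4 and 104) higher on shControl.2. OASL and OAS2 lay in the second dimmest of the signal groups above, where 22.9% of genes were apart. IRF9, SPN and CD80 lay in the third (12.3%) and TNFRSF13B in the fourth (6.82%). The share rises at low signal, so neither count is read as particular to its list. The other list members at least 1.5-fold apart were ADA, UNG, SERPINA9, PLK1, AGO4, EGR1, NFKBIB, CCL4 and KRT8, of which SERPINA9, PLK1, NFKBIB, CCL4 and KRT8 had signals of at most 114. MEF2C (64.8 and 43.3), a B-cell factor, came close to the limit at 0.58 on the log2 scale, lower on shControl.2.

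Among the brighter 5359 of the 10718 genes, 52 were at least 1.5-fold apart (0.970%), 29 higher (0.541%) and 23 lower (0.429%) on shControl.2. Furthest apart among those lower was RGS1, a regulator of G protein signalling in B cells, at 1205 and 500, 2.41-fold, and its second probe set above the threshold went the same way at 212 and 141. Its remaining probe set, below the threshold, went the other way at 1.54 and 8.27, and with all probe sets averaged the difference turned from -1.27 to 0.19 on the log2 scale. CIAO1, of iron-sulphur protein assembly, was at 409 and 186, but its other probe sets were level, at 277 and 258 and at 125 and 122. PABPC1L, YARS2 and BRIX1, a ribosome assembly factor, differed by 2.13-fold, 2.08-fold and 1.95-fold, the last 2 on a single probe set. ADA, adenosine deaminase, was at 1191 and 697 on its brightest probe set and at 393 and 499 on the other, the opposite way. ANKRD11, TTF2, CEP290, KIF21B, RNF187 and METTL14 differed by 1.86-fold to 1.65-fold. RNF187 was lower at its second probe set too, 67.5 and 42.5.

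Furthest apart among genes higher on shControl.2 was CEP43, a centrosomal gene, at 321 and 642, 2.00-fold, with other probe sets at 199 and 195 and at 197 and 147. The RNA helicase DDX54 was at 322 and 592, with others at 139 and 162 and at 73.3 and 70.2. ITFG1, TAF6 and HNRNPUL1, an hnRNP relative, differed by 1.79-fold, 1.76-fold and 1.75-fold. FKBP1A, the FK506-binding protein, was at 547 and 942 and at 404 and 695 on a second probe set, while its others were at 578 and 600 and at 144 and 136. MED13L, of the Mediator kinase module, was higher at all 5 of its probe sets, from 429 and 726 at the brightest. ANXA2P2, NICOL1, PDCL, LRRC37A2 and RHOC differed by 1.74-fold to 1.68-fold. These 24 genes were chosen for their difference, so their values are a description.

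Other probe sets of the same gene gave a second reading of the same arrays. Of the 730 genes, 188 had another probe set above the threshold on both arrays, and in 21 of these (11.2%) at least 1 other probe set was also 1.5-fold apart in the same direction. Among the brighter 5359 genes the count was 8 of 32. The 188 genes had 272 other probe sets, of which 152 lay on the same side of 0 as the brightest one. Of the 272, 22 were past 1.5-fold on that side. Over all 19759 single-symbol probe sets above the threshold on both arrays, 4.48% were 1.5-fold higher and 3.98% lower on shControl.2. Among the 24 named genes, 17 had another probe set above the threshold and 6 had another one past 1.5-fold the same way, RGS1, RNF187, ANKRD11, ITFG1, FKBP1A and MED13L. ANKRD11 was mixed, with 3 of its 5 others on the other side. For CEP290, ADA, CEP43, PDCL and LRRC37A2 no other probe set above the threshold lay on the same side. With all probe sets averaged, the log2 difference turned to 1.27 for CEP290 and to -0.023 for LRRC37A2, and without probe sets ending in _x_at it turned to -0.024 for CEP43 and to -0.64 for LRRC37A2. The 18S ribosomal RNA controls given above were also brighter on shControl.2, and their part in these differences was not tested.

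**Figure D5:**
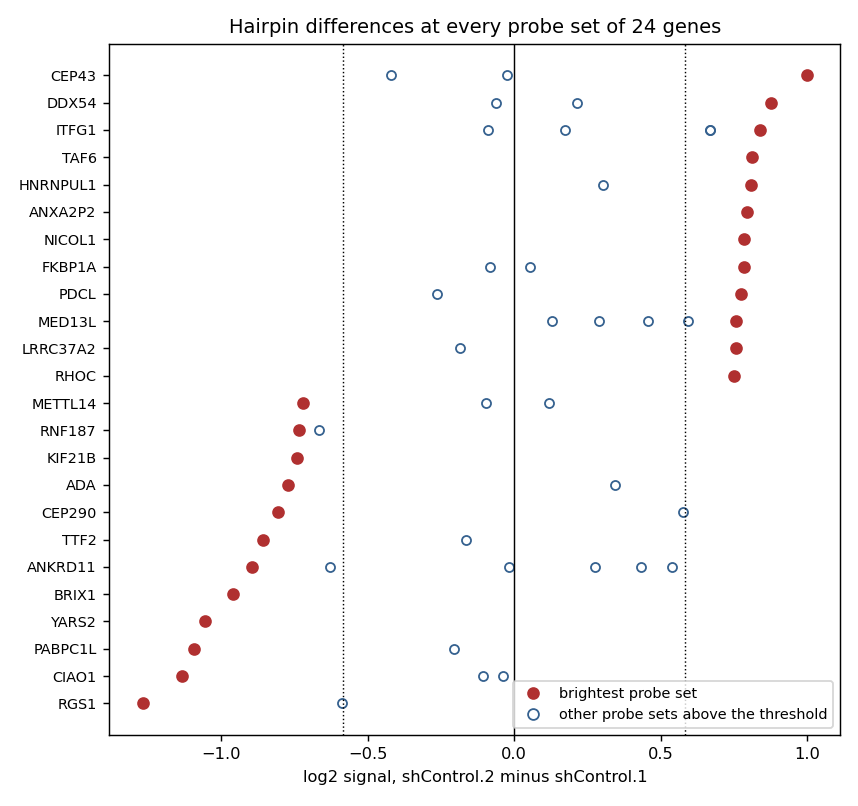
Log2 signal of shControl.2 minus shControl.1 for 24 genes, with the brightest probe set of each as a filled red circle and its other probe sets above the threshold on both arrays as open blue circles, and dotted lines at 1.5-fold. Of the 17 genes with open circles, 6 have at least 1 beyond the dotted line on the side of the red circle (for FKBP1A it lies hidden under the red circle).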

How the data were processed

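The deposited intensity of each probe set is a linear MAS5 signal. The submitters' processing notes name Expression Console and MAS5, and the sources used here give no version, scaling target or detection call. MAS5 subtracts mismatch probes, so low signals are noisy. Only the 2 control arrays were used, grouped by title, and their number limits the precision. Signals were taken to log2 with no pseudocount or further normalization, using Python 3.11.15, numpy 2.4.6 and pandas 2.3.3. Of 54675 probe sets, 62 were array controls, 1801 had several symbols and 11721 had none in the platform annotation, and these were left out. Of 478 symbols in 25 lists, 438 were measured, 1 under an updated symbol, and 40 were not analysed here. Promoters matched 15384 genes by symbol. The text names the 6 markers, the 15 brightest genes, bright and below-threshold members of each list, and up to 12 genes per direction between the hairpins among the brighter 5359 genes. Members, lists and rules were chosen with earlier results of these data known, and no difference between the arrays was tested. The code that counts folds was checked on simulated data. Alternatives were other thresholds, probe set rules, normalizations, a pseudocount of 32 and each array alone.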

Additional observations from a re-analysis of the deposited data

How the results depend on the processing

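The count of genes above the threshold stayed within 1.5 times 10718 at the 35th and 65th percentile, without probe sets ending in _x_at, with averaged probe sets and on each array alone, and so did the counts of 20 of the 25 lists. Small lists of other cell types moved. T and NK cell markers (3) became 8 at the 35th percentile, and myeloid markers (1) became 3 there, 0 at the 65th percentile and 0 with the mean of probe sets. Erythroid and megakaryocyte markers (3) became 5 at the 35th percentile, 1 at the 65th and 0 with the mean of probe sets. Epithelial and stromal markers (5) became 3 at the 65th percentile and 3 without _x_at probe sets, and SOX genes (6) became 3 with the mean of probe sets. Without replicate 1 or without replicate 2 the counts were 5 and 6 for T and NK cell markers, 2 and 3 for myeloid markers and 3 and 5 for erythroid and megakaryocyte markers. Ribosomal protein genes among the 100 brightest went from 47 to 25 with the mean of probe sets. That setting also lowered CD79B to the 75.6th, PAX5 to the 78.6th and POU2AF1 to the 79.8th percentile. Genes at least 1.5-fold apart (730, with 341 higher and 389 lower on shControl.2) were 205 with a pseudocount of 32 (101 and 104), 1642 at the 35th percentile (745 and 897), 264 at the 65th (139 and 125), 6616 with no filter (3185 and 3431) and 1672 with every probe set on its own (885 and 787). Among the 24 named hairpin differences, RGS1 turned to 0.19, CEP290 to 1.27 and LRRC37A2 to -0.023 (log2) with the mean of probe sets, and CEP43 turned to -0.024 and LRRC37A2 to -0.64 without _x_at probe sets. Probe sets below the threshold enter the mean, and the cause of each change was not tested. No paired analysis was possible because the 2 arrays are 1 group and no groups were compared.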

Other observations

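The neighbours of CCND1, SOX11 and CDKN2A along the chromosome, in the gene order of RefSeq, were looked at after the values above were known. Around CCND1 (9760 and 10317), the nearest measured protein-coding genes had low signals, MYEOV 43.8 and 28.3 on one side and LTO1 56.9 and 68.4 on the other. The fibroblast growth factor genes that follow, FGF19 (2.25 and 1.41) and FGF3 (2.58 and 1.43), were below the threshold on both arrays, and FGF4 was above it on 1 (43.5 and 21.0). Around SOX11 (797 and 787), ALLC (19.3 and 2.32) and COLEC11 (21.3 and 6.73) on one side and CMPK2 (2.90 and 20.6), RSAD2 (4.25 and 8.23) and RNF144A (5.51 and 8.96) on the other were below the threshold. The next genes past these were bright, RPS7 (15495 and 14918) beyond COLEC11 and ID2, an inhibitor of E proteins (1132 and 1208), beyond RNF144A. Beside CDKN2A (36.2 and 25.5), CDKN2B (0.990 and 8.10) and the interferon gene IFNE (12.9 and 14.5) were below the threshold, while the adjacent MTAP, of methionine salvage, had 215 and 230 and was above the threshold on both arrays at 5 of its 6 probe sets.

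Among the 100 brightest probe sets of the array, 39 matched several gene symbols and 8 had no symbol in the annotation used. Of the 100 brightest genes, 34 were represented by a probe set ending in _x_at, against 5.65% of all genes.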
